A study of Ovis aries with 22 samples.

Results

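The unfolded protein response is the programme by which a cell adjusts protein folding in the endoplasmic reticulum (ER) to the load of secreted and membrane proteins. It was described here through 10 genes chosen by name, ERN1, ATF6, XBP1, ATF4, DDIT3, HSPA5, HSP90B1, CALR, DNAJB9 and MANF. All 10 were among the 26200 gene symbols of the count tables, and all 10 were among the 14979 genes that passed the filter on low counts. RNA was sequenced from the sinus wall of the great arteries of sheep. Pulmonary autograft sinus came from 3 animals that had undergone the Ross procedure, in which the animal's pulmonary root is moved to the aortic position, and was taken 6 months after surgery. Aortic sinus and pulmonary sinus came from 4 other animals, described in the series' design text as not operated. One aortic library, replicate 1 from animal D3, carries the treatment label "Ross surgery". It stayed in the aortic group. No breed, age or sex is given in the sources used here, and the tissue was whole wall, so fewer cells of a type and less RNA per cell cannot be told apart.

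As background, 3 sensors in the ER membrane start the response. IRE1 alpha, encoded by ERN1, splices the mRNA of the transcription factor XBP1. ATF6 is cut in the Golgi to release a transcription factor, and PERK, encoded by EIF2AK3, slows translation while favouring that of ATF4, which in turn raises DDIT3, the gene of the stress factor CHOP. Their targets include the ER chaperones BiP (HSPA5), GRP94 (HSP90B1) and calreticulin (CALR), the BiP co-chaperone ERdj4 (DNAJB9) and the secreted ER protein MANF. Arterial smooth muscle cells and fibroblasts that make collagen and proteoglycans send these products through the ER. Counts per gene report mRNA level only, not XBP1 splicing, ATF6 cleavage or translation of ATF4.

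Library totals lay between 17380599 and 20741334 counts, and the members held between 330 counts (DDIT3, pulmonary replicate 2) and 17207 counts (CALR, aortic replicate 4) per library. Smooth muscle markers were abundant in every library, with 11 genes summing to between 30332 and 97558 CPM (counts scaled to a common library size). On the first principal component (37.9% of the variance) the score of pulmonary replicate 1 was -9.34, just below the aortic range of -8.46 to 30.6. Pulmonary replicate 4, at 29.5, lay inside that range, and pulmonary replicates 2 and 3 lay above it at 67.6 and 55.6. Autograft replicate 1 stood apart on the second component, at 64.1. Deviations from the group means, correlated across genes within an animal, gave -0.18 for D3 and -0.13 for D4, while aortic D4 with pulmonary D3 gave 0.40 and aortic D3 with pulmonary D4 gave 0.26.

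Per length, in the FPKM values of the authors, the members covered a wide range of levels. HSP90B1 had the highest mean over the 11 libraries at 443 FPKM, followed by CALR at 347, ATF4 at 259, HSPA5 at 157 and XBP1 at 119.8 FPKM. MANF followed at 59.1, DDIT3 at 30.0, DNAJB9 at 13.1 and the sensors ATF6 at 6.37 and ERN1 at 3.30 FPKM. Each gene exceeded the next in this order in 11 of 11 libraries. The ranges over libraries overlapped between neighbours from HSP90B1 down to XBP1, and from XBP1 to ERN1 they did not overlap. The chaperones HSP90B1 and CALR thus held the highest levels and the sensors the lowest, and the transcription factor ATF4 stood above the chaperone HSPA5.

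Compared with native pulmonary sinus, the kind of tissue the autograft started as, 2 of the 10 members were called. XBP1 and DNAJB9 rose and 0 fell, and 9 of 10 members had a log2 fold change above 0, against 50.1% of all genes. Of all genes tested with edgeR, 11.3% were called at an adjusted p under 0.05 in either direction and 6.05% were called higher. Those 1699 genes numbered 2753, 522, 505 and 1004 in the fits that left out pulmonary replicate 1, 2, 3 or 4 and 452 in the fit that left out autograft replicate 2, and the 2 members became 0 to 3 in such fits. The members' median log2 fold change was 0.33 and that of all genes 0.00. At an unadjusted p under 0.05, 5 members were higher (XBP1, DDIT3, HSPA5, DNAJB9 and MANF), and 16.3% of all genes were. The libraries of both groups did not overlap for 3 members (XBP1, DNAJB9 and MANF, all higher), as for 10.9% of all genes in that direction and 22.1% in either.

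**Figure D1:**
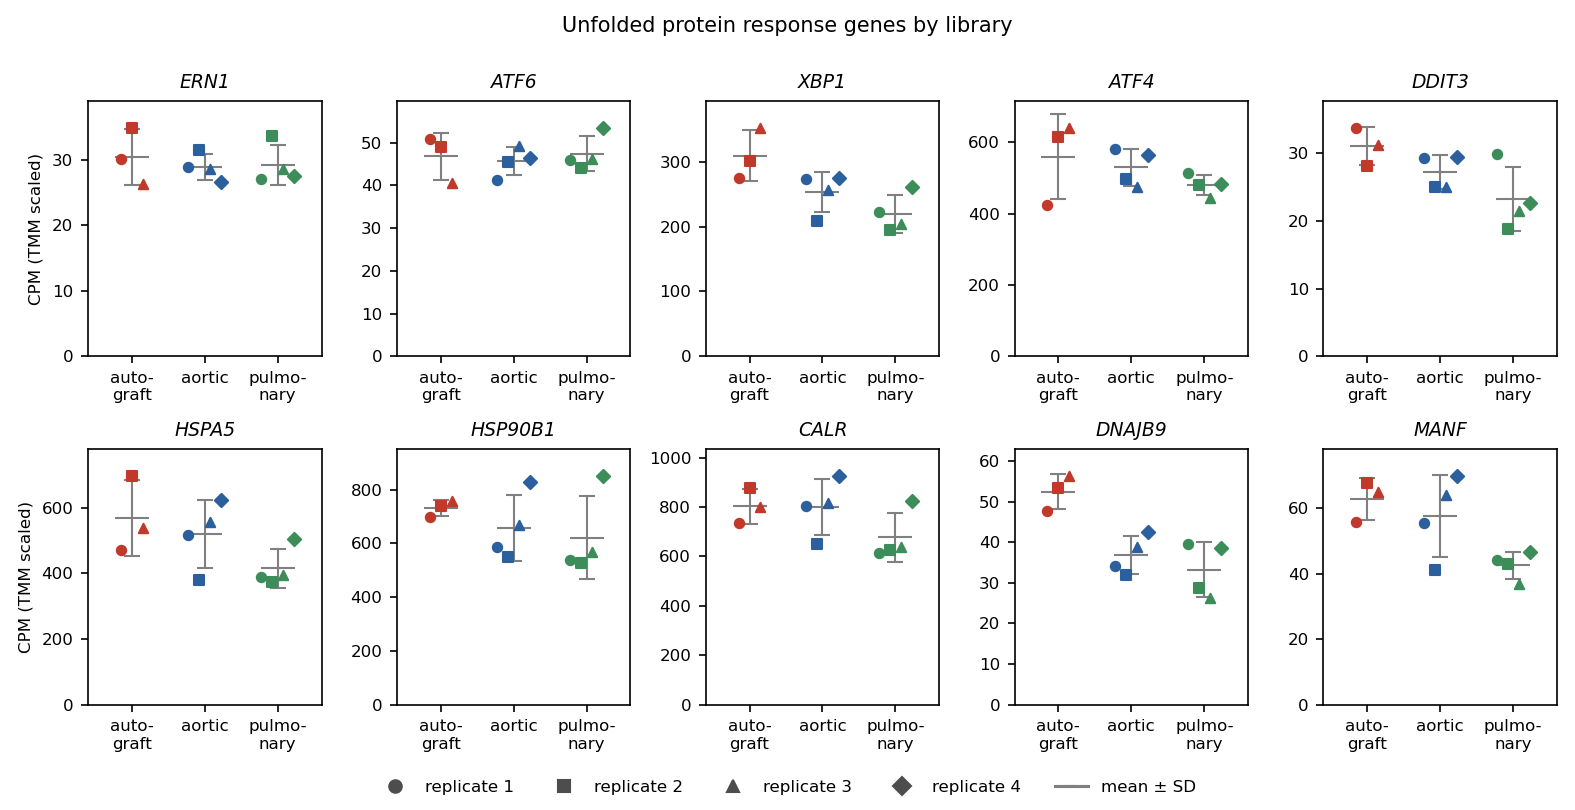
Level of each member in every library, in CPM with TMM scaling on a linear axis that starts at 0, for autograft (n = 3), aortic (n = 4) and pulmonary (n = 4) sinus. Symbols are replicates and bars are mean ± SD. The autograft points of DNAJB9 (47.7 to 56.3 CPM) lie above all native points, while ERN1 and ATF6 overlap across the 3 groups.

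Neither sensor was called in any comparison. ERN1 stood at 30.1, 34.9 and 26.4 CPM in autograft replicates 1 to 3, at 28.9, 31.6, 28.7 and 26.6 CPM in aortic replicates 1 to 4 and at 27.1, 33.7, 28.6 and 27.5 CPM in the pulmonary ones. The groups overlapped entirely, with the highest value in autograft replicate 2 and the lowest in autograft replicate 3. The log2 fold change of ERN1 was 0.06 ± 0.13 (SE) against pulmonary (edgeR adjusted p = 0.776) and 0.07 ± 0.13 against aortic sinus (0.757). ATF6 stood at 50.7, 49.0 and 40.5 CPM in the autograft, 41.3, 45.4, 49.2 and 46.5 CPM in aortic and 45.9, 44.1, 46.2 and 53.4 CPM in pulmonary sinus. Here pulmonary replicate 4 was the highest and autograft replicate 3 the lowest, and the log2 fold changes of the autograft were -0.02 ± 0.11 (adjusted p = 0.926 in edgeR) and 0.04 ± 0.11 (0.875). The SD of ATF6 over the 11 libraries, 0.12 on the log2 scale, was larger than that of only 4.06% of the genes tested, and that of ERN1, 0.13, larger than 6.66%.

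XBP1, the transcription factor that IRE1 alpha activates, stood at 275, 300.5 and 352 CPM in the autograft replicates. It stood at 274, 208, 256 and 274 CPM in aortic and at 222, 194, 204 and 260.1 CPM in pulmonary sinus. All 3 autograft values lay above all 8 native ones, although autograft replicate 1 exceeded aortic replicates 1 and 4 by under 2 CPM. The rise against pulmonary sinus was 0.49 ± 0.14 on the log2 scale (edgeR adjusted p = 0.0483), with 309 ± 38.9 CPM (SD, n = 3) in the autograft over 219.9 ± 29.2 CPM (SD, n = 4). The call ended in 8 of 11 fits that left out 1 library, with adjusted p = 0.0970 and 0.131 without autograft replicates 2 and 3, 0.0608, 0.0679 and 0.0629 without aortic replicates 1, 3 and 4, and 0.0638, 0.125 and 0.132 without pulmonary replicates 1, 2 and 3. The fold change stayed between 0.38 and 0.58 in those fits. The call also ended in 8 of 14 other settings, among them only these groups fitted (0.0909) and the authors' FPKM + 1 (0.0618). Against aortic sinus XBP1 was at 0.29 ± 0.14 and was not called (edgeR adjusted p = 0.253).

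DNAJB9, the J-domain co-chaperone of BiP and a target of XBP1, showed the largest difference of the autograft among the 10 members, from either native sinus. Its level was 47.7, 53.4 and 56.3 CPM in the autograft, 34.2, 32.0, 38.7 and 42.4 CPM in aortic and 39.6, 28.7, 26.2 and 38.5 CPM in pulmonary sinus. The lowest autograft library lay above the highest native one, aortic replicate 4. DNAJB9 rose against pulmonary sinus by 0.66 ± 0.16 on the log2 scale (edgeR adjusted p = 0.0284), with 52.5 ± 4.37 CPM (SD, n = 3) in the autograft over 33.3 ± 6.78 CPM (SD, n = 4). The adjusted p was 0.0760 and 0.0662 without autograft replicates 2 and 3, 0.0804 and 0.0744 without pulmonary replicates 2 and 3, and 0.0669 when only these groups were fitted. Leaving out any 1 of the other 7 libraries kept the call. Against aortic sinus the log2 fold change was 0.51 ± 0.16 (edgeR adjusted p = 0.105, unadjusted p = 0.00859), and DESeq2 called it with an adjusted p = 0.0404.

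MANF, which is made in the ER and released under stress, stood at 55.8, 67.9 and 64.9 CPM in the autograft and at 44.1, 43.1, 36.8 and 46.5 CPM in pulmonary sinus, without overlap. In aortic sinus it spread from 41.1 CPM in replicate 2 over 55.4 and 64.2 CPM to 69.8 CPM in replicate 4, overlapping both other groups. The log2 fold change against pulmonary sinus was 0.56 ± 0.17, with an edgeR adjusted p = 0.0512. It passed without aortic replicate 2 (0.0266), with upper quartile scaling (0.0485), with DESeq2 (0.0200), with a mean of at least 1 CPM (0.0473) and with FPKM + 1 or + 0.1 (0.0487 and 0.0471). Against aortic sinus it was 0.13 ± 0.17 (adjusted p = 0.688 in edgeR).

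Of the factors downstream of PERK, ATF4 varied most within the autograft. It stood at 423 CPM in autograft replicate 1, the lowest of the 11 libraries, and at 615 and 640.0 CPM in replicates 2 and 3, the highest of the 11. Aortic sinus held 582, 498, 476 and 564 CPM and pulmonary sinus 514, 481, 445 and 482 CPM. The log2 fold change of the autograft was 0.22 ± 0.15 against pulmonary (edgeR adjusted p = 0.341) and 0.08 ± 0.15 against aortic sinus (0.786). DDIT3 stood at 33.7, 28.2 and 31.3 CPM in the autograft, 29.3, 25.1, 25.1 and 29.5 CPM in aortic and 29.9, 18.8, 21.5 and 22.6 CPM in pulmonary sinus. Pulmonary replicate 1 lay within the autograft range and the other 3 pulmonary libraries lay below it. DDIT3 was at 0.42 ± 0.15 against pulmonary sinus and was not called (edgeR adjusted p = 0.0955), but it was called without pulmonary replicate 1 (0.0190) and without both libraries of animal D3 (0.0249).

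Among the chaperones, HSPA5, the ER member of the HSP70 family, stood at 471, 696 and 539.7 CPM in the autograft. Aortic libraries held 516, 380.1, 557 and 624 CPM and pulmonary libraries 388, 373, 395 and 505 CPM. Autograft replicate 1 lay below pulmonary replicate 4, so these groups overlapped, and the log2 fold change of 0.45 ± 0.19 was not called (edgeR adjusted p = 0.131). HSP90B1, the ER member of the HSP90 family, stood at 699, 737 and 759 CPM in the autograft, a narrow band inside the native range. Its lowest native value was 526 CPM in pulmonary replicate 2 and its highest 849.5 CPM in pulmonary replicate 4, with 539.6 and 568 CPM in pulmonary replicates 1 and 3 and 584, 550.0, 666 and 827 CPM in aortic replicates 1 to 4. CALR, a lectin chaperone of glycoproteins that binds calcium, stood at 733, 875 and 800.1 CPM in the autograft, 806, 652, 816 and 924 CPM in aortic and 615, 628, 639.6 and 825 CPM in pulmonary sinus. HSP90B1 (0.24 ± 0.19) and CALR (0.25 ± 0.15) were not called against pulmonary sinus (edgeR adjusted p = 0.428 and 0.288), and with the authors' FPKM their signs turned (-0.16 and -0.07, not called).

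**Figure D2:**
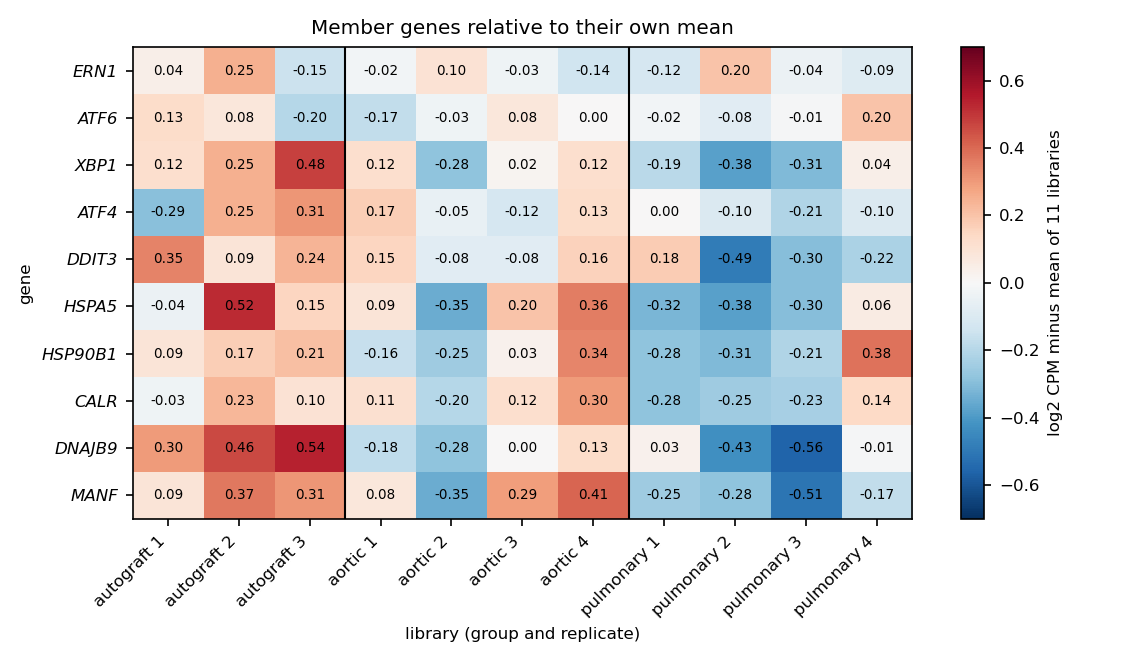
Log2 CPM of each member (rows) in each library (columns), minus the gene's mean over the 11 libraries, from blue (below the mean) to red (above). All 10 members are above their mean in autograft replicate 2 and 0 of 10 in pulmonary replicate 3, and the rows of ERN1 and ATF6 are the palest.

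Read by library, the members moved in part together. In autograft replicate 2 all 10 lay above their own mean over the 11 libraries, in aortic replicate 4 9 did, in autograft replicate 3 8 did and in autograft replicate 1 7 did. In pulmonary replicate 3 0 of 10 lay above it, and in pulmonary replicate 2 and aortic replicate 2 only ERN1 did. Averaged over the members, the autograft libraries lay 0.08, 0.27 and 0.20 above the mean on the log2 scale. The aortic libraries lay at 0.02, -0.18, 0.05 and 0.18 and the pulmonary ones at -0.12, -0.25, -0.27 and 0.02, so autograft replicate 1 was within the aortic range. Both libraries of animal D6, replicate 4 in each native group, held the highest value of their group for XBP1, HSPA5, HSP90B1, CALR and MANF. For XBP1 in aortic sinus the lead was small, with 274.3 CPM in replicate 4 and 273.9 CPM in replicate 1.

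The profiles of single members were compared by the root mean square difference of their centred log2 CPM over the 11 libraries, as a description. HSPA5 and CALR were the closest members (0.118), followed by HSP90B1 and CALR (0.127) and by HSPA5 and MANF (0.130). The farthest were ERN1 and DNAJB9 (0.373). Among 10928 other genes of at least 5 CPM, the genes nearest to HSPA5 were CALR, MANF and FICD (0.140), which encodes the ER enzyme that modifies BiP. XBP1 was in place 9 and HSP90B1 in place 21 of that order. MANF was nearest to HSPA5, then to REXO2 (0.141) and NDUFC1 (0.151). DNAJB9 was nearest to the ribosomal protein gene RPL30 (0.086), MFSD3 (0.108) and DAD1 (0.116), a subunit of the ER oligosaccharyltransferase, and XBP1 was in place 75 for it.

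Against native aortic sinus, the tissue of the place to which the autograft was moved, 0 of 10 members were called by edgeR, where 2.38% of all genes were (0.948% higher and 1.43% lower). That share was 356 genes, and it became 25 genes without autograft replicate 2, 30 without aortic replicate 3 and 576 without pulmonary replicate 1, with 0 members called in each of the 11 such fits. With an unadjusted p under 0.05 there was 1 member, DNAJB9, and 23.0% of all genes. All 10 log2 fold changes were above 0, from 0.01 for CALR to 0.51 for DNAJB9, with a median of 0.13 against 0.00 for all genes. For CALR, ATF4, ATF6 and HSP90B1 the sign turned with the authors' FPKM. XBP1 and DNAJB9 did not overlap between these groups, as for 9.77% of all genes in the higher direction and 20.6% in either. HSPA5 was at 0.13 ± 0.19 and DDIT3 at 0.19 ± 0.15. Both comparisons of the autograft use the same 3 autograft libraries.

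Between the native sinuses 0 of 10 members and 0% of all genes were called by edgeR or DESeq2, and 306 genes (2.04%, 1.27% higher in aortic sinus) had an unadjusted p under 0.05. MANF was the 1 member among these, at 0.43 ± 0.15 higher in aortic sinus (unadjusted p = 0.0166, not called after adjustment in edgeR). Within animals, aortic exceeded pulmonary sinus in 4 of 4 animals for XBP1, ATF4, HSPA5 and CALR and in 3 of 4 for DDIT3, HSP90B1, DNAJB9 and MANF. Of all genes tested, 5.91% were higher in aortic sinus in 4 of 4 animals. These counts take the animal labels as given, and for D3 and D4 the correlations above were higher across the animals than within them. The aortic library of D4 was below the pulmonary one of D3 for XBP1, ATF4 and HSPA5. For HSPA5 the differences within D3, D4, D5 and D6 were 0.41, 0.03, 0.50 and 0.30 on the log2 scale, and for MANF 0.33, -0.07, 0.80 and 0.58. Of the 10 fold changes 8 were above 0, against 50.8% of all genes, and their median was 0.18. The groups overlapped for all 10 members, where 1.42% of all genes did not overlap (0.714% higher and 0.701% lower).

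**Figure D3:**
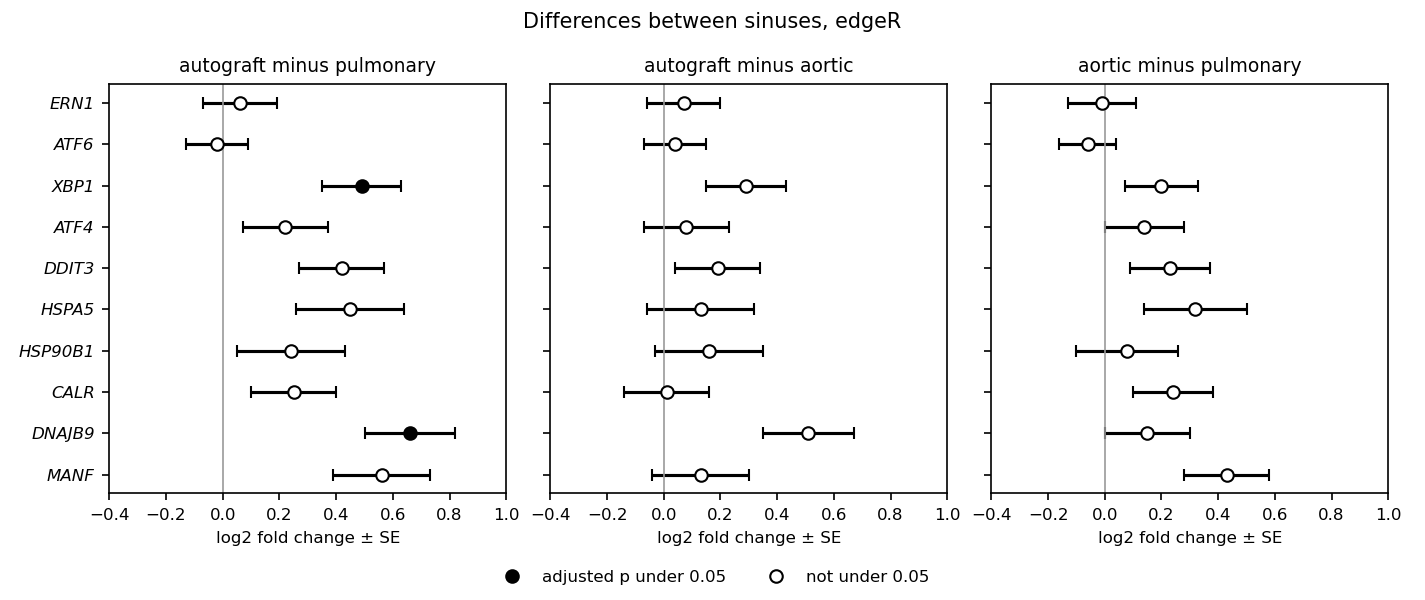
Log2 fold change ± SE of the 10 members in the 3 comparisons, from 1 edgeR fit; filled points have an adjusted p under 0.05 over all genes tested. Only XBP1 (0.49) and DNAJB9 (0.66) against pulmonary sinus are filled, and the 3 panels share libraries, so they are not independent.

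The rest of the pathway was described with 7 lists that together held 130 tested genes. Against pulmonary sinus 18 of these rose and 2 fell in edgeR, beside 6.05% and 5.29% of all genes, and their median was 0.19. Against aortic sinus 4 rose and 1 fell, beside 0.948% and 1.43% of all genes, with a median of 0.12. When only the autograft and pulmonary groups were fitted, 14 of the 19 pathway genes named below lost the call (edgeR adjusted p 0.0558 to 0.119), and TXNDC5, SSR3, NUPR1, VLDLR and PMAIP1 did not. Between the native sinuses 0 were called. Among 9 other sensors and membrane-bound factors 1 rose, CREB3L1, an ER stress transducer that promotes collagen secretion, by 1.08 ± 0.23 on the log2 scale (median of the list -0.03). Its call ended without autograft replicate 2 (edgeR adjusted p = 0.0674). EIF2AK3, named here as the gene of PERK, was at 0.23 ± 0.15 and was not called.

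Of 19 other ER chaperones and folding enzymes 4 rose and 0 fell (median 0.21). The prolyl isomerase genes FKBP10, whose product acts on procollagen, FKBP11, PPIB and FKBP7 rose by 0.57 ± 0.14, 1.36 ± 0.35, 0.59 ± 0.15 and 0.78 ± 0.21 on the log2 scale. FKBP9 (-0.01 ± 0.16) and FKBP14 (0.59 ± 0.23) of the same family, named after their values were seen, were not called. Of 14 genes of disulfide bond formation 3 rose (median 0.37). TXNDC5, of the protein disulfide isomerase family, rose from 213 ± 24.3 to 331 ± 13.8 CPM (0.64 ± 0.11), the ER peroxiredoxin PRDX4 rose by 0.57 ± 0.13 and PDIA5 by 0.99 ± 0.25. TXNDC5 remained called whichever library was left out (adjusted p at most 0.0402 in edgeR). The other 6 lost the call in 4 to 7 of 11 such fits, each without autograft replicate 2 and without pulmonary replicate 2 or 3 (highest adjusted p of any such fit 0.114).

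Of 28 genes of translocation and ER to Golgi transport 5 rose and 0 fell (median 0.27). SSR3, a subunit of the translocon-associated complex, rose from 104 ± 11.3 to 163 ± 18.8 CPM (0.65 ± 0.12) and was called without any 1 library. The signal peptidase gene SEC11A rose by 0.65 ± 0.13, the gene of the KDEL receptor KDELR3, which returns ER chaperones from the Golgi, by 0.63 ± 0.13 and the translocon gene SEC61B by 0.60 ± 0.14. Each of these 3 lost the call without autograft replicate 2 or pulmonary replicate 3 (edgeR adjusted p up to 0.0821). The fifth gene, named after its values were seen, was KDELR2. SSR3 and KDELR3 also rose against aortic sinus (0.59 ± 0.12 and 0.58 ± 0.13), and these calls ended in 7 and 9 of 11 fits without 1 library. Of 17 genes of ER-associated degradation 2 rose and 1 fell (median 0.08). The lectin gene ERLEC1 was at 0.45 ± 0.12, EDEM2 at 0.66 ± 0.19 and the ubiquitin-conjugating enzyme gene UBE2G2 at -0.46 ± 0.12, and these calls ended in 7, 10 and 5 of 11 fits without 1 library (edgeR adjusted p up to 0.168 without autograft replicate 2). EDEM2 was not called by limma-voom without a block (0.62, adjusted p = 0.0633) or with the animal as a random block (0.0630).

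Of 32 genes of the integrated stress response 2 rose and 1 fell (median 0.16). NUPR1, a stress-induced chromatin-associated protein gene, rose from 62.8 ± 17.8 to 182 ± 24.7 CPM (1.53 ± 0.23), and its 3 autograft values of 168, 167 and 210.4 CPM lay above all native ones, which reached 93.5 CPM. The mitochondrial serine hydroxymethyltransferase gene SHMT2 rose by 0.59 ± 0.14, and the lipoprotein receptor gene VLDLR fell by 0.99 ± 0.24 on the log2 scale. These last 2 calls each ended in 4 of 11 fits without 1 library (edgeR adjusted p up to 0.0913 without autograft replicate 2). Of 11 genes of ER stress apoptosis 1 rose, PMAIP1, which encodes the BH3-only protein NOXA, from 3.06 ± 0.559 to 12.2 ± 5.32 CPM (edgeR adjusted p = 0.0103), and the list's median was -0.18. NUPR1 and PMAIP1 kept the call whichever library was left out. Both also rose against aortic sinus, by 1.30 ± 0.23 and 1.70 ± 0.33, where each call ended in 5 of 11 fits without 1 library (edgeR adjusted p up to 0.0971 without aortic replicate 3). VLDLR fell there too (-1.05 ± 0.24), a call that ended in 8 of 11 such fits and in 12 of 14 other settings. With limma-voom the adjusted p of VLDLR was 0.0454 against pulmonary and 0.0783 against aortic sinus, and with the animal as a random block it was 0.0509 and 0.0838.

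**Figure D4:**
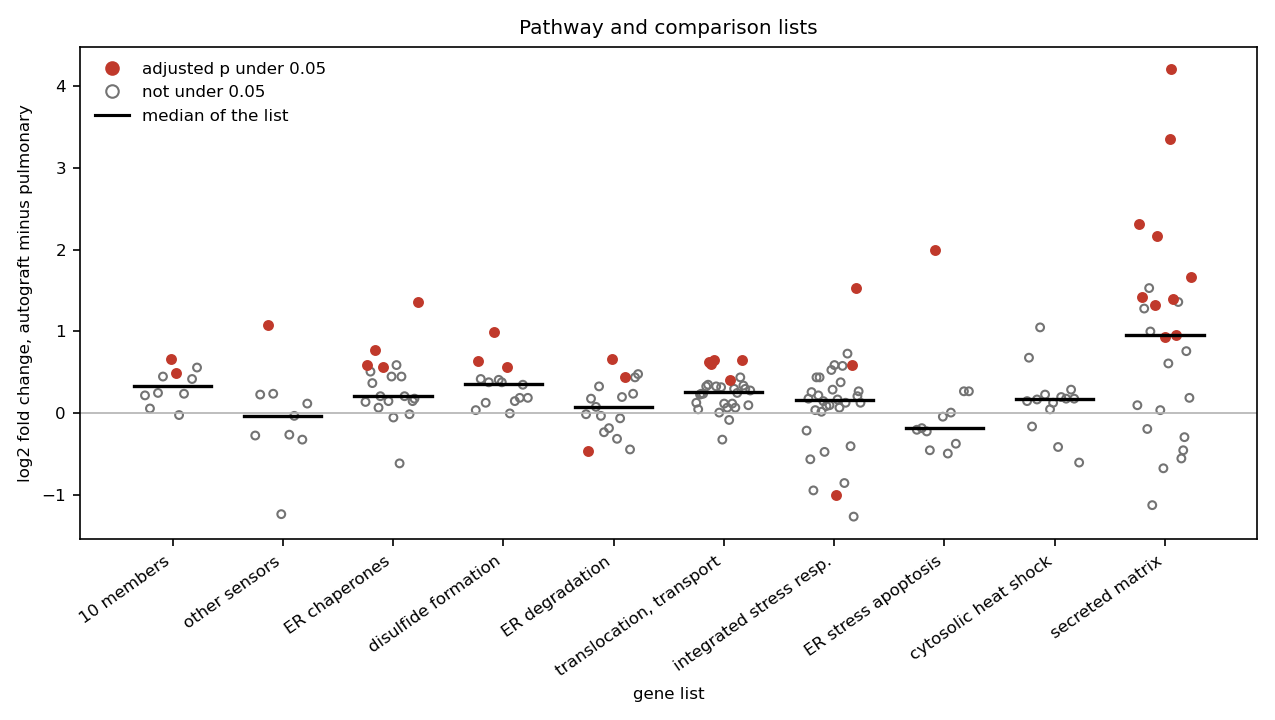
Log2 fold change of every tested gene of each list, autograft minus pulmonary sinus, with a bar at the list's median; filled points have an adjusted p under 0.05 in edgeR. The medians of the 10 members (0.33), disulfide formation (0.37) and translocation (0.27) lie above 0, the apoptosis list (-0.18) below, and the secreted matrix list (0.96) is the highest.

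Cytosolic heat shock genes, the counterpart outside the ER, had 0 of 14 genes called in edgeR (1 higher and 1 lower at an unadjusted p under 0.05) and a median of 0.18. Of 25 secreted matrix products, 10 rose and 0 fell against pulmonary sinus (median 0.96), beside 6.05% and 5.29% of all genes. COL1A1 was at 1.42 ± 0.21, the calcification inhibitor gene MGP at 2.16 ± 0.34, FMOD at 0.93 ± 0.16 and THBS1 at 3.35 ± 0.59. With the authors' FPKM + 1, MGP was at 1.05 and was not called (limma adjusted p = 0.182), and FMOD was at 0.57 and stayed called. The FPKM values of the libraries follow 1 common distribution, and its effect on abundant genes such as MGP was not tested. Against aortic sinus 5 of the 25 rose and 0 fell (median 0.83), beside 0.948% and 1.43% of all genes. There the calls of COL1A1, MGP, FMOD and THBS1 ended in 5, 5, 7 and 7 of 11 fits without 1 library. Summed over the list, matrix mRNA was 75913, 54854 and 55177 CPM in the autograft replicates, 32249 to 39913 CPM in aortic and 20855 to 44789 CPM in pulmonary sinus. The autograft replicate with the highest matrix sum, replicate 1, had the lowest mean level of the 10 members among the autografts. In each native group, replicate 4 had both the highest matrix sum (39913 CPM in aortic, 44789 CPM in pulmonary sinus) and the highest mean of the members. Aortic replicate 2 had the lowest mean of its group beside a matrix sum of 37072 CPM, above replicates 1 and 3. A relation between matrix mRNA and the members was not tested.

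Several cell type marker lists also differed between the groups. Of 8 plasma cell markers in the tables, the sum was 27.5, 71.2 and 28.5 CPM in the autograft, 12.4 to 18.1 CPM in aortic and 6.96 to 16.8 CPM in pulmonary sinus. The defining marker TNFRSF17 had 0 counts in autograft replicates 1 and 3, in all aortic libraries and in pulmonary replicates 1, 2 and 4, 1 count in autograft replicate 2 and 2 counts in pulmonary replicate 3. MZB1 had 2, 25 and 8 counts in the autograft and 2 to 13 in the native libraries. TNFRSF17, MZB1, POU2AF1 and FCRL5 did not pass the filter on low counts. Of the 4 plasma cell markers tested, 3 rose against pulmonary sinus in edgeR, beside 6.05% of all genes. PRDM1 rose by 2.62 ± 0.59, JCHAIN by 1.97 ± 0.54 and IRF4 by 3.03 ± 0.85. Against aortic sinus 0 of these 4 markers were called. The edgeR adjusted p there was 0.163 for PRDM1, 0.0778 for JCHAIN and 0.369 for IRF4. IRF4 had 18, 15 and 21 counts in the autograft, at most 5 in a pulmonary library and 17 in aortic replicate 2. It passed the filter through the autograft, so its call is not independent of that filter. JCHAIN gave 54.3 of the 71.2 CPM in autograft replicate 2. In autograft replicate 1 JCHAIN was at 7.37 CPM, below the 7.46 CPM of aortic replicate 3. Macrophage markers (13 genes) summed to 1624, 1197 and 270.2 CPM in the autograft against 93.2 to 438 CPM in pulmonary sinus, so replicate 3 lay within the pulmonary range. T and natural killer cell markers (12 genes) summed to 62.4, 62.8 and 49.7 CPM against 4.17 to 10.4 CPM, and B cell markers (8 genes, PAX5 at 0 throughout) to 25.7, 14.8 and 11.8 CPM against at most 4.41 CPM. Endothelial markers (11 genes) summed to 203, 1837 and 1057 CPM against 172 to 501 CPM, and adipocyte markers (10 genes) to 87.3, 1044 and 563 CPM against 125 to 326 CPM, with autograft replicate 1 inside or below the pulmonary range in both. The aortic sums were 306 to 711 CPM and 128 to 555 CPM. Adipocyte genes did not move together, since PLIN4 was called lower (-1.67 ± 0.36) and LPL higher (2.56 ± 0.68) against pulmonary sinus in edgeR. These 2 genes were named after their values were seen. Fibroblast markers (12 genes) summed to between 10429 and 13725 CPM in the autograft against 2575 to 8737 CPM in pulmonary sinus. DCN and LUM, at means of 5101 and 3151 CPM in the autograft, held much of this sum. Both also belong to the secreted matrix list, so the 2 lists are not independent. Of the 12 genes, 4 rose against pulmonary and 2 against aortic sinus in edgeR, beside 6.05% and 0.948% of all genes. Smooth muscle markers (11 genes) summed to 30332 to 56206 CPM in the autograft against 61871 to 97558 CPM in pulmonary sinus. The part of these shifts in the levels of XBP1, DNAJB9 and the other members was not tested.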

How the data were processed

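Total RNA (TRIzol) from sinus wall was made into TruSeq libraries and sequenced in 2 runs, according to the protocols in the labels. STAR 2.5.2b, featureCounts 1.5.3, Bowtie2 2.3.3.1 and cutadapt are listed in the submitters' processing notes. No coordinates are printed, with build, annotation and strand setting not given in the sources used here. The authors deposited raw counts per gene symbol and FPKM tables. The FPKM values of the libraries follow 1 common distribution, a step the labels do not state. Fits on FPKM therefore differ from the count fits in scaling, and the part of this in changed signs or calls was not tested. The genes of the 10 members matched protein-coding RefSeq symbols.

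The 22 sample entries are 11 libraries with 2 runs each, and the runs were summed. A row with no gene name, at most 0.000522% of counts, was left out. The 3 groups were fitted together with edgeR 4.0.16 (R 4.3.3; TMM scaling, filterByExpr by group, quasi-likelihood test), with Benjamini-Hochberg adjustment over all 14979 genes tested and a threshold of 0.05. CPM values are TMM scaled. SEs are the fold change divided by the root of the F statistic. Both autograft comparisons share the autograft libraries. Scripts were tested on simulated data. Totals were at least 17380599 counts, and the members held at least 330 counts per library, which leaves their counting error below the spread between libraries. This does not extend to markers with few counts, such as TNFRSF17. The p-values measure the spread between the libraries within groups, which came from different animals as labelled. The main fit had no animal term, so it did not use the pairing of the native libraries.

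Aortic and pulmonary libraries came in pairs from animals D3 to D6, per the labels. Deviations within an animal correlated at -0.18, -0.13, 0.43 and 0.45. Alternatives were other scalings, DESeq2 1.42.0, limma 3.58.1 (voom, random animal block, and log2 of the authors' FPKM + 1 or + 0.1), other filters, single runs, only the groups compared and each library left out. Leaving out pulmonary and autograft replicate 1 together was chosen after seeing the data. Named genes were the members, up to 4 called genes with the smallest p per list and comparison, and the 3 genes nearest in profile to members with an SD of at least 0.3. EIF2AK3 was named outside this rule. The members and lists were chosen with earlier results of these data known.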

Additional observations from a re-analysis of the deposited data

Results flagged for a closer look

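In pulmonary sinus, replicate 4 lay apart from the other 3 libraries for 3 chaperones. HSPA5 was 505 CPM there against 373 to 395 CPM, HSP90B1 849.5 CPM against 526 to 568 CPM, and CALR 825 CPM against 615 to 639.6 CPM. In each case the gap to the nearest library exceeded Dixon's 95% critical value for 4 samples. These were 3 of 20 gene and group combinations checked in the native sinuses, where chance alone gives about 1 in 20, and the 3 genes are not independent since they come from 1 library.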

How the results depend on the processing

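Against pulmonary sinus the 2 members called became 1 with no filter, with run 1 alone and with run 2 alone, 0 with only the 2 groups fitted, and 0 to 3 when 1 library was left out. Against aortic sinus the 0 called became 1 with DESeq2 (DNAJB9) and stayed 0 when 1 library was left out. Between the native sinuses it was 0 in every setting run. With the replicate block (animal) the members called stayed 2, 0 and 0 in the 3 comparisons. The random block was fitted with limma-voom. Over the 62 fold changes of members and named genes, limma-voom without a block already ended 2 calls (EDEM2 against pulmonary and VLDLR against aortic sinus), and adding the block ended 1 more, VLDLR against pulmonary sinus. The members' median ranged from 0.25 to 0.42, 0.05 to 0.23 and 0.13 to 0.25 without 1 library. Genes called of all tested against pulmonary sinus were 1699, 2997 with DESeq2, 479 with only the 2 groups and 452 to 2753 without 1 library. Against aortic sinus they were 356, 1469 with DESeq2, 110 without animal D3 and 25 to 576 without 1 library (170, 25 and 210 without autograft replicates 1 to 3, 61, 111, 30 and 70 without aortic replicates 1 to 4, 179 and 228 without pulmonary replicates 3 and 4).

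Signs turned only for uncalled members. Against pulmonary sinus, ERN1 was -0.05 without autograft replicate 2, and ATF6 was 0.07 without autograft replicate 3 and 0.04 without pulmonary replicate 4. With FPKM + 1 and with FPKM + 0.1, HSP90B1 was -0.16 and CALR -0.07. Against aortic sinus the same FPKM fits gave HSP90B1 -0.30, CALR -0.28, ATF4 -0.07 and ATF6 -0.04. ATF6 was also -0.02 without autograft replicate 1, -0.01 without aortic replicate 1 or animal D3, and -0.03 without pulmonary and autograft replicate 1. Without autograft replicate 2, ERN1 was -0.02, HSPA5 -0.03 and CALR -0.05. ATF4 was -0.03 without autograft replicate 3. CALR was -0.01 with run 1 alone, -0.07 without aortic replicate 2 and -0.0002 without pulmonary replicate 3. Between the native sinuses, ERN1 was 0.02 without aortic replicate 4 and 0.06 without pulmonary replicate 2, ATF6 0.01 without pulmonary replicate 4 and HSP90B1 -0.05 without aortic replicate 4. Leaving out 1 or 2 libraries, these members ranged against pulmonary sinus up to 0.15 (ERN1) and down to -0.12 (ATF6), against aortic sinus up to 0.16 (ERN1), 0.26 (HSPA5) and 0.08 (CALR), and between the native sinuses from -0.08 (ERN1) and -0.09 (ATF6) to 0.27 (HSP90B1). The cause was not tested. With 3 and 4 libraries a group, differences near the SE of 0.10 to 0.19 could not be called, and mRNA counts do not report XBP1 splicing or protein.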
